A study of Mus musculus with 6 samples.

Results

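Long skipped exons are described here: the 1367 skipped-exon events, of 33100 in the splicing table (4.13%) and of 45595 splicing events of all kinds, whose exon measured more than 300 bases. They were chosen by length alone, with no measured level. The 1367 events covered 1218 distinct exons in 1073 genes, and 129 exons stood in more than 1 event because they were paired with different neighbouring exons. Lengths ran from 301 to 8104 bases with a median of 548.5, and 261 distinct exons were above 1000 bases and 74 above 2000. At the edge of the rule, 8 events had an exon of 301 bases and 5 had one of 300. The mean inclusion level was 0.887 over 57 covered events of 301 to 310 bases and 0.886 over 66 of 291 to 300 bases.

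RNA was sequenced from Neuro-2a (N2a), a neuroblastoma cell line of the mouse, in 3 libraries of hnRNP DL knockout cells and 3 of wild-type cells. The labels give neither the kind of knockout, nor how many clones were used, nor whether each library is a culture of its own, so a p-value reflects only the spread among these libraries. The table arranges the libraries as 2 sets of 3 without naming a genotype for either, so they are called set 1 and set 2, every difference is set 1 minus set 2, and no direction is tied to the knockout. The most covered skipped-exon event of Hnrnpdl itself had 2014, 1806 and 1760 junction reads in set 1, against 2569, 2146 and 2034 in set 2, which does not tell which set is the knockout.

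Most internal exons of mammals are short, and splicing factors are thought to recognise them by pairing the splice sites at their ends across the exon. Long internal exons are rarer, and many carry large coding segments that add a domain or a tail to one isoform of a protein, as in the giant ankyrins, Nogo-A and big tau. Others lie in transcripts that cannot be translated in full, such as the poison exons by which genes of splicing factors limit their own protein. hnRNP DL, encoded by Hnrnpdl, is an RNA-binding protein related to hnRNP D (AUF1), and the series asked how splicing differs between cells with and without it.

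The sequences of the exon ends show how several of these exons come as pairs that differ by a few bases. All were read from GENCODE vM21 transcripts (GRCm38, the assembly of mm10) and run 5′ to 3′ on the gene's strand. The long exon of Mapt, the gene of the microtubule-binding protein tau, has 2 annotated starts, and the capitals mark the AG that precedes the inner one. The exon of Eef1d, a subunit of translation elongation factor 1, likewise has an inner start after the AG in capitals, directly before the annotated start codon. The exon of Clvs1, the gene of clavesin 1, a lipid-binding protein of clathrin-coated vesicles in neurons, has 2 annotated ends, and the capitals mark the GT that would begin the intron after the inner one.
Mapt, start of the exon of 759 bases, chr11:104298498-104298557, plus strand: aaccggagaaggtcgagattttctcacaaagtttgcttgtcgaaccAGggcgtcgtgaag
Eef1d, start of the exon of 1140 bases, chr15:75903789-75903818, minus strand: gcgcccgaAGatgaggagtgggaaggcctc
Clvs1, end of the exon of 625 bases, chr4:9281983-9282012, plus strand: gctgtttgctgccaattgggatcagaGTag

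The 2 starts of the Mapt exon lie 48 bases apart, a multiple of 3, those of Eef1d 10 bases apart and the 2 ends of the Clvs1 exon 4 bases apart, neither a multiple of 3. Bsg, the gene of basigin, and Nptn, the gene of neuroplastin, encode related immunoglobulin superfamily proteins, and each has a coding exon of 348 bases that adds an immunoglobulin-like domain to its longer isoform. Aligned position by position without gaps, the exons were identical at 204 of 348 bases (58.6%). The first 60 bases of each are shown as an example. Of these, 33 are the same, a share no higher than over the whole exon, and the capitals mark those positions.
Bsg, chr10:79708697-79708756, plus strand: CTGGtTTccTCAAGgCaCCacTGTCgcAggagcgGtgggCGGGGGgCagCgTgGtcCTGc
Nptn, chr9:58618663-58618722, plus strand: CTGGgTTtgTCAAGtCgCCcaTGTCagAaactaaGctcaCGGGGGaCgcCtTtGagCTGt

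The last 30 bases of 5 long coding exons are given as examples of the side that meets the 5′ splice site, with the last 3 bases in capitals. The exons belong to Ncam1 (a neural adhesion molecule, whose long cytoplasmic isoform carries this exon), Nasp (a histone chaperone), Rtn4 (whose long exon defines Nogo-A), Kif23 (a mitotic kinesin) and Usp34 (a deubiquitinase).
Ncam1, 801 bases, chr9:49506853-49506882, minus strand: cgctgtgcctcccgcaccagcaaagacCGA
Nasp, 975 bases, chr4:116610403-116610432, minus strand: agagagacgaacagatgaaagagggtgAAG
Rtn4, 2361 bases, chr11:29708741-29708770, plus strand: tattgtcagcagagctgaataaaacttCAG
Kif23, 312 bases, chr9:61923905-61923934, minus strand: ataggcgtagaagaggaccattgccgcAGG
Usp34, 421 bases, chr11:23333830-23333859, plus strand: tacaagcataatactcatcctactataGAG

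These ends differ, and AG were the last 2 bases of the Nasp, Rtn4 and Usp34 exons but of neither the Ncam1 nor the Kif23 exon. Among all 1217 distinct long exons with a sequence, 79.8% ended in G and 56.7% in AG, against 77.1% and 52.9% of 27315 skipped exons of 300 bases or less. The first base was G in 45.9% of long exons and 43.9% of the shorter ones. Median GC content was 52.2% in long exons (quartiles 46.6 and 57.8%) and 50% in the shorter ones (quartiles 44.0 and 55.7%). These shares are descriptions of annotated exons and carry no test.

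The annotation set the long exons apart more than their letters did. In GENCODE vM21, 629 of 1218 (51.6%) were coding throughout, against 79.5% of 27352 distinct exons of 300 bases or less. A further 302 long exons (24.8%) held both coding and untranslated bases, against 5.09% of the shorter exons, and 321 (26.4%) held an annotated start codon, against 6.07%. A stop codon was annotated in 19 long exons (1.56%), against 1.2%. Another class, called exons of noncoding transcripts here, holds exons of coding genes found in no transcript annotated as protein-coding. Such a transcript may still carry an annotated coding part, and the class was not split by transcript type. This class numbered 227 (18.6%), against 8.43%. Exons of noncoding genes numbered 32 (2.63%), against 1.48%, and those of untranslated sequence alone 27 (2.22%), against 5.37%. The last long exon had no annotated counterpart. Of the 629 coding exons, 281 (44.7%) had a length divisible by 3, against 42.7% of the shorter coding exons.

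An annotated intron lay inside 156 long exons (12.8%), against 55 of the shorter ones (0.201%). For such an exon, another transcript splices within it, and a read on either outer junction is counted as inclusion whether or not the inner intron was removed. The 5′ end of a long exon was shared with another annotated exon in 605 cases (49.7%), against 23.5% of the shorter exons. The 3′ end was shared in 511 cases (42.0%), against 23.0%. At least 1 end was shared by 851 long exons (69.9%), against 41.3%, so junction reads of many long exons are also reads of an exon of another length.

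The inclusion level of an event estimates the share of transcripts that carry the exon, from 0 to 1, after the inclusion junction reads are scaled for the 2 junctions they come from. All long events had the same junction lengths, 298 for inclusion and 149 for skipping, so exon length does not enter the level and reads inside the exon are not used. Events with a mean of 20 or more junction reads per library were kept, 1206 of 1367 in 953 genes, and 161 had fewer. The kept events held 344497, 299615 and 294757 junction reads in the libraries of set 1, against 381137, 309771 and 299314 in set 2, with reads counted again where events share a junction. Intervals from such counts would cover counting error only.

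Most long exons were included nearly always. A mean level above 0.90 was found for 986 of 1206 events (81.8%), a level from 0.10 to 0.90 for 155 (12.9%) and a level below 0.10 for 65 (5.39%). Among 27441 covered events of 300 bases or less the shares were 80.7%, 11.4% and 7.92%. The mean level of the long exons was 0.887, 0.892 and 0.889 in the libraries of set 1 and 0.893, 0.887 and 0.887 in those of set 2, so the sets overlapped. Length above the limit showed no steady trend: the share between 0.10 and 0.90 was 14% for 343 events up to 400 bases, 9.95% up to 500, 13.9% up to 1000, 10.4% up to 2000 and 15.5% for 71 events above 2000 bases. The 59 covered long-exon events in 38 genes with zinc finger symbols had 44 events above 0.90, 12 between and 3 below 0.10. Their share between was 20.3%, against 12.9% of all long events.

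**Figure D1:**
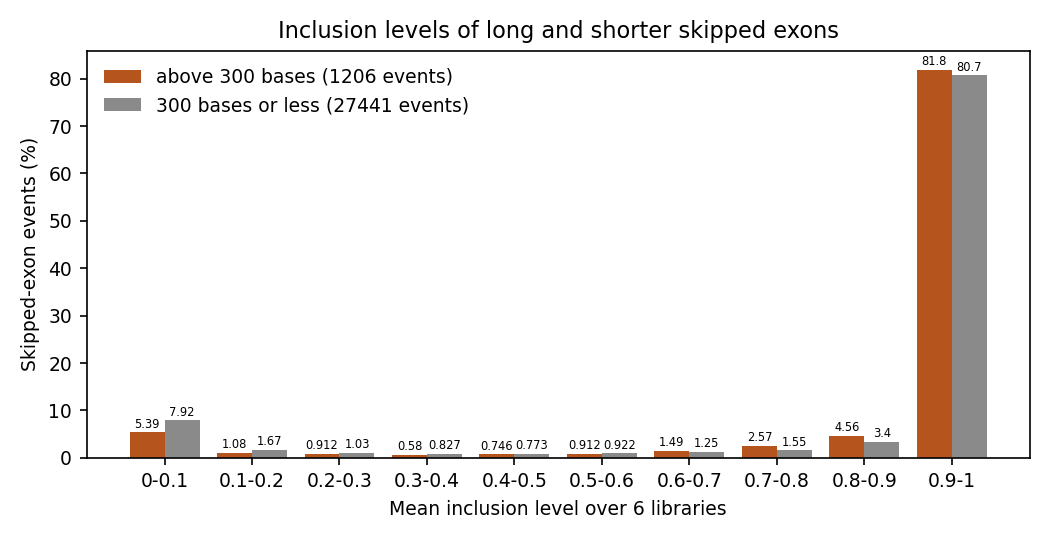
Share of skipped-exon events (percent, vertical axis) by mean inclusion level over the 6 libraries (horizontal axis, bins of 0.1), for exons above 300 bases (1206 events) and of 300 bases or less (27441 events); bars start at 0. The top bin holds 81.8% of long and 80.7% of shorter exons, and the lowest bin 5.39% and 7.92%.

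Levels differed by annotation. Long exons that were coding throughout had 551 of 645 events above 0.90 and 13 below 0.10, and those with coding and untranslated bases had 269 of 313 above 0.90 and 3 below 0.10. Long exons of noncoding transcripts of coding genes had 41 of 211 events below 0.10 (19.4%), against 54.2% of 1899 such events of shorter exons. That class held 2 kinds of exon: of 118 events with an annotated intron inside, 104 were above 0.90. Of the 93 with no intron inside, 37 were below 0.10, 12 between and 44 above 0.90. Where neither end was shared with another annotated exon, 22 of 24 long events of noncoding transcripts were below 0.10 (91.7%), against 79.5% of 1054 shorter ones. Untranslated exons were spread more widely, with 5 of 23 long events below 0.10, 7 between and 11 above 0.90.

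**Figure D2:**
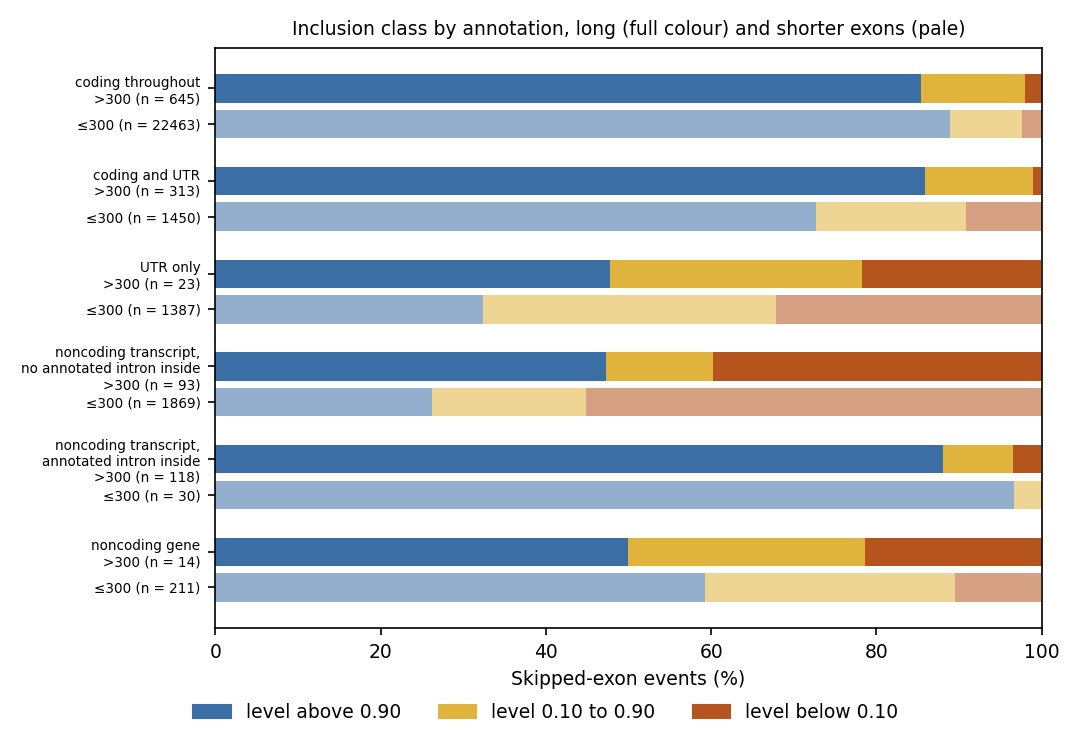
Share of covered skipped-exon events (percent, horizontal axis) with a mean inclusion level above 0.90, from 0.10 to 0.90 and below 0.10, by annotation of the exon, with long exons above the shorter ones in each pair and the number of events beside each bar. In long exons of noncoding transcripts the share above 0.90 is 88.1% with an annotated intron inside and 47.3% without.

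The 4 longest exons belonged to Map1a, Ank3, Srrm2 and Map1b. Map1a and Map1b encode microtubule-associated proteins and Srrm2 a scaffold protein of nuclear speckles, and most of the protein of each is encoded in 1 exon. The exon of 8104 bases of Map1a (chr2:121299269-121307372) had levels of 0.817, 0.926 and 0.932 in set 1 and 0.903, 0.912 and 0.973 in set 2, which overlapped. The exon of 6569 bases of Srrm2 averaged 0.998 ± 0.0026 in set 1 and 1.0 ± 0.0 in set 2, and that of 6490 bases of Map1b 0.998 ± 0.0024 and 0.998 ± 0.0033 (SD, n = 3 libraries each). The exon of 7674 bases of Ank3 had low levels and is described next.

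Ank2 and Ank3 encode ankyrin-B and ankyrin-G, adaptors between membrane proteins and the spectrin skeleton, whose giant forms in neurons carry one very long exon. The Ank3 exon of 7674 bases (chr10:69986089-69993762) had levels of 0.151, 0.167 and 0.0431 in set 1, against 0.204, 0.2 and 0.208 in set 2. Every library of set 1 was lower than every library of set 2, and the third of set 1 stood lowest with 9 inclusion reads. The means were 0.12 ± 0.067 and 0.204 ± 0.0042 (SD, n = 3 each). The difference of −0.0839 ± 0.039 (SE) did not pass the quasi-binomial test (p = 0.0418, adjusted p = 0.735), and without the third library of set 1 it was −0.0453. This exon has an annotated intron inside and shares its 3′ end with another exon, so its level does not show that the exon was kept whole. An Ank3 exon of 2550 bases with nearly the same start had 0.0938, 0.107 and 0.061 in set 1, against 0.138, 0.179 and 0.156 in set 2. These sets also did not overlap, but both Ank3 events were counted against the same skipping reads, 87, 75 and 100 in set 1 and 72, 62 and 57 in set 2, and are not independent. The quasi-binomial test gave the exon of 2550 bases p = 0.0288 (adjusted p = 0.735). The Ank2 exon of 6198 bases had levels of 0.275, 0.136 and 0.111 in set 1 and 0.298, 0.18 and 0.2 in set 2, which overlapped.

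Several long coding exons with a known isoform were almost absent from these cells. The Bsg exon had 2, 3 and 6 inclusion reads in set 1 and 7, 5 and 3 in set 2, beside 3018 to 3631 skipping reads per library. The mean level was 0.00055 ± 0.0003 in set 1 and 0.000746 ± 0.00027 in set 2 (SD, n = 3 each). The related Nptn exon, known from a neuronal form of neuroplastin, averaged 0.0075 ± 0.0042 in set 1 and 0.0102 ± 0.0075 in set 2. The Naca exon of 5916 bases, which gives the muscle form skNAC, had 2, 1 and 1 inclusion reads in set 1 and none in set 2, beside 4710 to 6653 skipping reads. A handful of reads does not show a difference between the sets at this depth. The Rtn3 exon of 2124 bases averaged 0.00163 ± 0.00028 in set 1 and 0.00181 ± 0.00093 in set 2. Low levels were also found for exons of Map4 (3180 bases, 0.00196 in set 1 and 0.0 in set 2), Epb41l3 (528 bases, 0.00811 and 0.00358) and Wnk1 (1236 bases, 0.00136 and 0.0). Mprip, which binds myosin phosphatase and RhoA, had an exon of 3804 bases at 0.0287 ± 0.002 in set 1 and 0.0388 ± 0.0083 in set 2, without overlap but not past the quasi-binomial test (p = 0.192, adjusted p = 0.735). Ndufv3, a subunit of respiratory complex I, had an exon of 1092 bases at 0.0655 ± 0.0091 and 0.0588 ± 0.0092. The genes named for low or partial inclusion were chosen after their values were seen, except Nasp and the others that the stated rule names.

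Between these ends stood exons used in part of the transcripts. The Ncam1 exon of 801 bases had levels of 0.256, 0.265 and 0.195 in set 1 and 0.24, 0.342 and 0.329 in set 2, and the sets overlapped. The Nasp exon of 975 bases, which belongs to the testicular form of the chaperone, had 0.42, 0.459 and 0.355 in set 1 and 0.507, 0.279 and 0.264 in set 2. The spread within set 2 exceeded the difference of 0.0611 ± 0.084 (SE). The Rtn4 exon of 2361 bases had 0.741, 0.801 and 0.782 in set 1 and 0.731, 0.69 and 0.713 in set 2. The sets did not overlap, by a small gap, and the quasi-binomial test did not pass (difference 0.0631 ± 0.021, SE; p = 0.192, adjusted p = 0.735).

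Kif23 has a long exon of 312 bases that separates its isoform CHO1, which binds actin, from MKLP1. Its levels were 0.425, 0.507 and 0.452 in set 1, against 0.333, 0.387 and 0.348 in set 2. Each library of set 1 was above each of set 2. The means were 0.461 ± 0.042 and 0.356 ± 0.028 (SD, n = 3 each). The difference was 0.105 ± 0.029 (SE), which did not pass the quasi-binomial test (p = 0.0485, adjusted p = 0.735). The second event of this exon, with another neighbouring exon, had means of 0.966 in set 1 and 0.905 in set 2 and overlapped. The Pam exon of 318 bases, in the gene of the enzyme that amidates neuropeptides, had 0.591, 0.479 and 0.625 in set 1 and 0.523, 0.344 and 0.378 in set 2, which overlapped. Clip1, a protein that tracks growing microtubule ends, had an exon of 2268 bases at 0.209, 0.277 and 0.294 in set 1, against 0.196, 0.18 and 0.11 in set 2. The sets did not overlap, and the difference of 0.0983 ± 0.037 (SE) did not pass the quasi-binomial test (p = 0.0511, adjusted p = 0.735).

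The other partly used exons mostly had sets that overlapped. Prrc2b (2061 bases) averaged 0.49 ± 0.037 in set 1 and 0.539 ± 0.08 in set 2, and Dst (327 bases), a cytoskeletal linker, 0.743 ± 0.06 and 0.751 ± 0.063. Ankrd17 (753 bases) averaged 0.335 ± 0.028 and 0.319 ± 0.06 in its event with more reads. Enah, a regulator of actin filaments, had nested exons of 843 and 303 bases with a common end, at 0.749 and 0.674 in set 1 and 0.809 and 0.733 in set 2. Lrp8, a receptor of reelin, had an exon of 381 bases at 0.224, 0.232 and 0.227 in set 1, against 0.208, 0.101 and 0.125 in set 2, which did not overlap (quasi-binomial test, p = 0.05, adjusted p = 0.735).

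**Figure D3:**
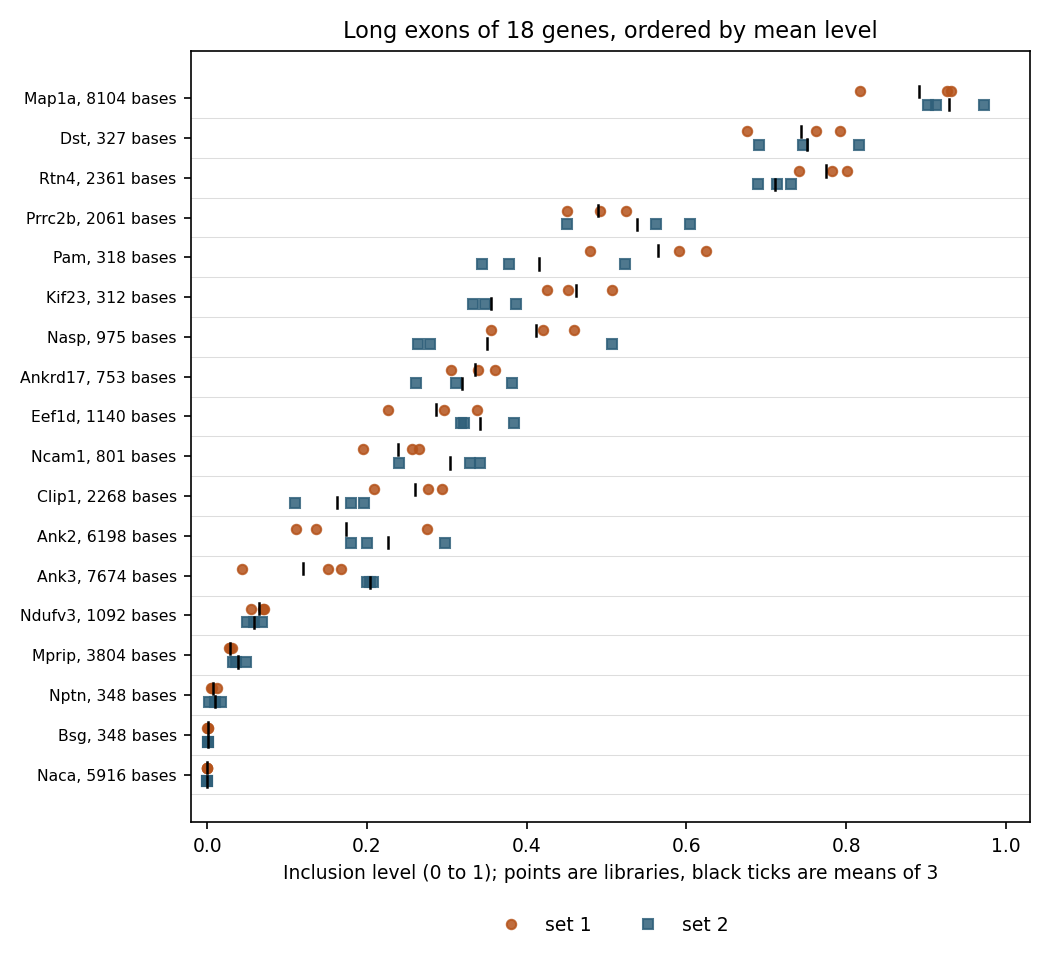
Inclusion level (0 to 1, horizontal axis) of long exons of 18 genes in each library, with set 1 above set 2 in each row and black ticks at the means of 3 libraries. Levels run from near 0 for Naca, Bsg and Nptn to about 0.9 for Map1a, and among those with means above 0.10 the sets of Kif23, Rtn4, Clip1 and the Ank3 exon of 7674 bases do not overlap.

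Some long exons of noncoding transcripts in genes of RNA-binding proteins had mean levels below 0.10. The Srsf3 exon of 456 bases (chr17:29039454-29039909), known as the poison exon through which this splicing factor limits its own level, had levels of 0.0351, 0.0298 and 0.0363 in set 1 and 0.0343, 0.0265 and 0.0448 in set 2. The sets overlapped and the means differed by −0.00146 ± 0.0056 (SE). The Snrnp70 exon of 1360 bases, in the gene of a U1 snRNP protein, averaged 0.0376 ± 0.0067 in set 1 and 0.0282 ± 0.0064 in set 2. The Tra2a exon of 306 bases, in the gene of another splicing activator, had 0.0368, 0.0373 and 0.0415 in set 1 and 0.117, 0.0305 and 0.0588 in set 2, where the first library stood highest. Exons of Tial1 (377 bases) and Srsf9 (358 bases) averaged 0.038 and 0.00608 in set 1 and 0.035 and 0.00644 in set 2.

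The comparison between the sets asked which long exons differed in inclusion. In the authors' deposited table, 6 of 1367 long events (0.439%) had an adjusted p under 0.05 with a difference of 0.10 or more, where 0.677% of all 33100 skipped-exon events did. By direction, the authors' deposited table had 4 of the long events higher in set 1, where 0.426% of all skipped exons were. It had 2 lower, where 0.251% were. The 4 include both Mapt forms, which were counted against the same skipping reads. Without a minimum difference the authors' deposited table held 15 long events (1.1%) at an adjusted p under 0.05, where 1.16% of all skipped exons passed. Of these 15, 8 were higher in set 1 (0.719% of all skipped exons) and 7 were lower (0.441%). Neither 0.439% nor 1.1% was far from the share of all skipped exons. The 15 include both Mapt forms and both Clvs1 forms, and the forms of each gene share skipping reads.

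A quasi-binomial test, which takes the spread between libraries into account, was fitted on all 39419 covered events of the table. Its dispersion prior, the spread typical of other events, ran along the count of the rarer form. The prior was set from events averaging 5 or more rarer-form reads per library. Events with fewer took the value at that edge, so their prior came from events with more such reads. The quasi-binomial test called none of the 1206 long events, where 0.0% of 28647 skipped exons were called. The smallest adjusted p of a long exon was 0.263, for Usp34. At an unadjusted p under 0.05 the quasi-binomial test had 43 long events (3.57%), where 2.96% of all skipped exons passed. Of these, 19 were higher in set 1 (1.79% of all skipped exons) and 24 lower (1.17%). The shares of 3.57% and 2.96% both lay below the 0.05 that would pass without any difference. The test was thus strict here, and the absence of calls does not show an absence of change. Limma on logit levels called none (0.0% of all skipped exons) and had 29 long events at an unadjusted p under 0.05, where 2.65% of all passed. Libraries of the 2 sets did not overlap in 58 long events (4.81%), where 4.94% of all did, with 29 each way (3.14% of all skipped exons higher in set 1 and 1.79% lower).

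The 155 long events with levels from 0.10 to 0.90 show the spread between libraries best. Their levels ranged over a median of 0.122 within a set, and the means of the sets differed by a median of 0.0502. The first value is a range of single libraries and the second a difference of means, so they do not compare directly. In 78 of these events the mean was higher in set 1 and in 77 it was lower. The sets did not overlap in 20 of them (12.9%), against 12.5% of the shorter exons at such levels. A difference of 0.10 or more was found in 29 (18.7%), against 16.6% of the 3130 shorter exons at such levels. In 10 (6.45%) the libraries also did not overlap, against 6.68% of those shorter exons. Over all 1206 covered long events these 10 made up 0.829%, where 0.908% of all covered skipped exons met both conditions.

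The Mapt exon had the largest difference among the authors' calls. Big tau, the isoform with a very long internal exon in this gene, is known from peripheral neurons. The exon of 759 bases (chr11:104298498-104299256, coding throughout) had levels of 0.267, 0.502 and 0.468 in set 1, against 0.221, 0.155 and 0.186 in set 2. All 3 libraries of set 1 were higher, the first of them by a small gap. Skipping reads were 163, 51 and 62 in set 1 and 219, 144 and 129 in set 2, beside inclusion reads of 119, 103 and 109 and of 124, 53 and 59. The means were 0.413 ± 0.13 and 0.187 ± 0.033 (SD, n = 3 each), a difference of 0.225 ± 0.076 (SE). The quasi-binomial test gave p = 0.000715 and adjusted p = 0.735, while the adjusted p in the authors' deposited table was 0.00197. Without the first library of set 1 the difference was 0.298 and the quasi-binomial test passed (adjusted p = 0.0437). Without library 2 or library 3 of that set the difference was 0.18 or 0.198, and the quasi-binomial test did not pass (adjusted p = 0.834 and 0.835). With all libraries it also passed with the dispersion prior along the total count (adjusted p = 4.75e-08) and with one chosen after seeing the data (adjusted p = 0.0266).

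The form of the Mapt exon that starts 48 bases later, 711 bases long, shared its end and its skipping reads with the longer form. Its levels were 0.264, 0.48 and 0.426 in set 1, against 0.226, 0.143 and 0.213 in set 2, again without overlap. The quasi-binomial test gave p = 0.00244 and adjusted p = 0.735, and the adjusted p in the authors' deposited table was 0.0054. With the dispersion prior along the total count the quasi-binomial test passed (adjusted p = 1.33e-05). A further event of this form, with a more distant upstream neighbour and 0 to 3 skipping reads per library, averaged 0.969 in set 1 and 1.0 in set 2. The difference between the sets was thus measured against skipping from the nearer upstream exon.

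The Eef1d exon of 1130 bases (chr15:75902679-75903808), which holds the coding sequence of the long N-terminal extension of this elongation factor subunit, had levels of 0.834, 0.925 and 0.92 in set 1, against 0.736, 0.727 and 0.825 in set 2. The lowest library of set 1 stood just above the highest of set 2. This exon shares both ends with other annotated exons, so its level may cover several exon forms. The means were 0.893 ± 0.051 and 0.762 ± 0.054 (SD, n = 3 each), a difference of 0.13 ± 0.043 (SE). The quasi-binomial test gave p = 0.000313 and adjusted p = 0.615, and the adjusted p in the authors' deposited table was 4.29e-06. The quasi-binomial test passed with the dispersion prior along the total count (adjusted p = 2.24e-08) and with one chosen after seeing the data (adjusted p = 0.00603). The form with 10 more bases at its start, paired with another neighbouring exon, had 0.297, 0.226 and 0.338 in set 1 and 0.318, 0.322 and 0.384 in set 2. Those sets overlapped, and the mean was lower in set 1, by −0.0546 ± 0.039 (SE).

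Usp34 and Clvs1 had the smallest p-values in the authors' deposited table with differences below 0.10. The Usp34 exon of 421 bases had 0 skipping reads in all 3 libraries of set 1, against 18, 6 and 14 in set 2, beside 192 to 354 inclusion reads per library. The sets did not overlap, with mean levels of 1.0 ± 0.0 and 0.922 ± 0.04 (SD, n = 3 each). The adjusted p was 4.8e-07 in the authors' deposited table. The quasi-binomial test gave p = 8.66e-05 and adjusted p = 0.263. This result turned on the dispersion prior of that test: the adjusted p was 3.96e-05 with the prior along the total count and 0.014 with one chosen after seeing the data. Both forms of the Clvs1 exon, of 621 and 625 bases, were counted against the same 18, 25 and 0 skipping reads in set 1 and 0, 0 and 2 in set 2. The third library of set 1 had none and the sets overlapped, so 2 libraries carried the difference. In the authors' deposited table the adjusted p was 1.06e-07 for the shorter form and 1.87e-07 for the longer. By the quasi-binomial test both had an adjusted p of 0.735, but both passed with 2 other dispersion priors, at 5.24e-06 and 1.26e-05 along the total count and at 0.00419 and 0.00603 with the prior added after seeing the data. Without the second library of set 1 the differences were −0.0518 and −0.0385, and without the third library they were −0.145 and −0.117, against −0.0956 and −0.077 with all libraries.

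The Gnas exon of 2327 bases (chr2:174328108-174330434) lies in the imprinted locus of the stimulatory G protein alpha subunit. It has an annotated intron inside and shares both ends with other exons, so its level covers several exon forms. Levels were 0.852, 0.818 and 0.79 in set 1, against 0.917, 0.855 and 0.857 in set 2. The sets did not overlap, but the highest library of set 1 and the lowest of set 2 nearly met. The difference was −0.0566 ± 0.027 (SE; quasi-binomial test, p = 0.0021, adjusted p = 0.735), and in the authors' deposited table the adjusted p was 0.000811. With the dispersion prior along the total count, the quasi-binomial test gave an adjusted p of 3.54e-09. Without the first library of set 2 the difference was −0.0361. A second event of this exon, with another downstream neighbour and 0 to 3 skipping reads per library, averaged 1.0 in set 1 and 0.985 in set 2, a difference of the other sign (0.0152).

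The remaining calls of the authors came from exons with few skipping reads. Lzts2 (450 bases), the gene of a leucine zipper protein, had 0 skipping reads in set 1 and 0, 4 and 9 in set 2, with mean levels of 1.0 and 0.869. The first library of set 2 was also at 1.0, so the sets overlapped, and in the authors' deposited table the adjusted p was 0.00294. The difference of 0.131 was 0.0678 without the third library of set 2. A second Lzts2 event of this exon, with another upstream neighbour, had 0, 0 and 2 skipping reads in set 1 and 0 in set 2, a difference of the other sign (−0.0381). Zmym3 (680 bases), which encodes a zinc finger protein of chromatin complexes, appeared in 5 covered events with different neighbours. The one called had 3, 8 and 1 skipping reads in set 1 and 0, 1 and 0 in set 2, with mean levels of 0.849 and 0.984 and an adjusted p of 0.00722 in the authors' deposited table. Its difference of −0.135 was −0.0541 without the second library of set 1. The most covered Zmym3 event had 0.727, 0.491 and 0.676 in set 1, against 0.879, 0.763 and 0.769 in set 2. These did not overlap, yet the adjusted p was 0.107 in the authors' deposited table and 0.735 by the quasi-binomial test. Ap5m1 (646 bases), a subunit of an adaptor complex of endosomes, averaged 0.871 ± 0.1 in set 1 and 0.974 ± 0.028 in set 2, and its sets overlapped at 0.945 and 0.944. The difference of −0.103 was −0.044 without the second library of set 1. Like the Gnas exon, the Ap5m1 exon holds an annotated intron and shares both ends with other exons, so its level covers several exon forms.

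The other 5 exons at an adjusted p under 0.05 in the authors' deposited table differed by less than 0.10 and lay near full inclusion. The exon of 1599 bases of Ythdf3, the gene of a reader of methylated adenosine in RNA, had 0.987, 1.0 and 1.0 in set 1, against 0.947, 0.944 and 0.957 in set 2, without overlap. It averaged 0.996 and 0.949 (quasi-binomial test, p = 0.00454, adjusted p = 0.735). Arfrp1 (472 bases, a small GTPase of the Golgi) averaged 0.991 in set 1 and 0.955 in set 2, and Slc26a4 (360 bases, the anion exchanger pendrin) 0.993 and 0.92. Dpp7 (1061 bases, a dipeptidyl peptidase) averaged 0.917 and 0.981, and Sobp (1937 bases) 0.931 and 0.994. The sets of Arfrp1, Dpp7 and Sobp also did not overlap, while those of Slc26a4 did. A second Arfrp1 event of this exon had a small difference of the other sign (−0.00349). The Arfrp1 and Dpp7 exons also hold an annotated intron and share both ends, so their levels do not show exons kept whole. The Sobp difference of −0.0635 was −0.032 without the first library of set 1, and a second Sobp event of this exon had a difference of the other sign (0.0444). The Slc26a4 difference of 0.0736 was 0.0445 without the third library of set 2 and 0.114 without the first.

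**Figure D4:**
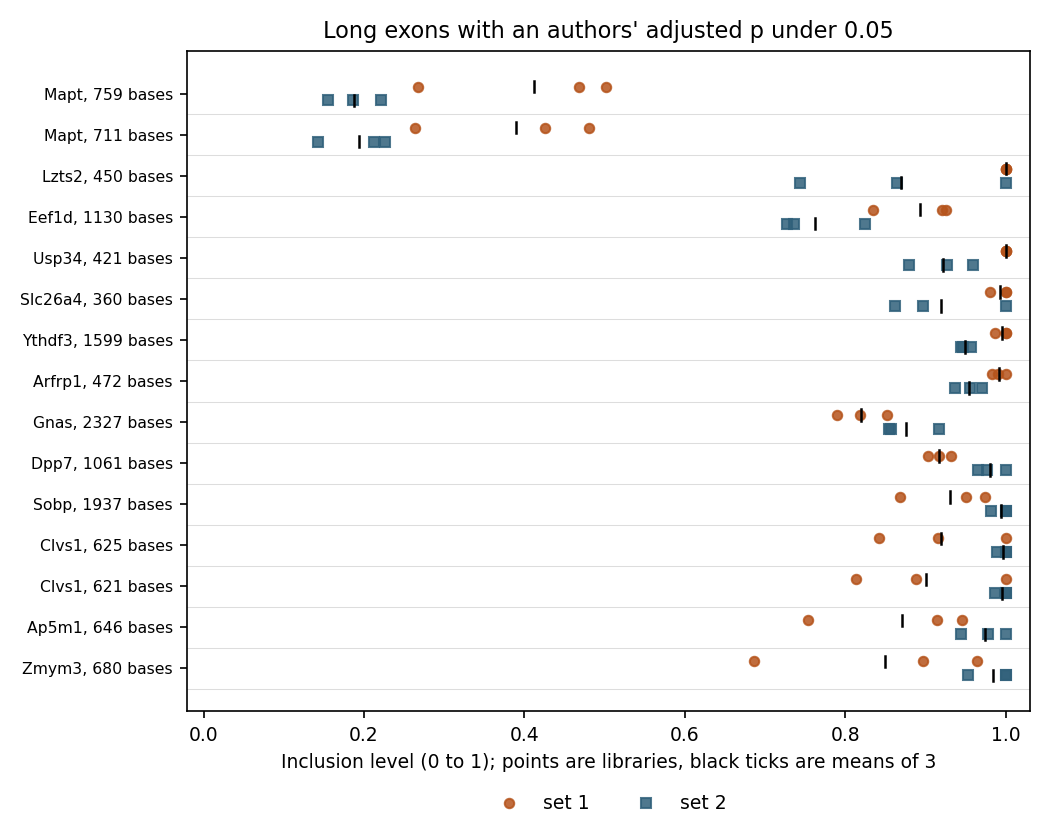
Inclusion level (0 to 1, horizontal axis) in each library for the 15 long-exon events with an adjusted p under 0.05 in the authors' deposited table, with set 1 above set 2 in each row, black ticks at the means of 3 libraries, and rows ordered by difference. The 2 Mapt forms reach at most 0.502, while every other exon is at 0.686 or higher in each library.

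Gene lists by role place these exons among others. In the list of the microtubule, actin and membrane skeleton, 35 covered long events in 25 genes had 2 authors' calls, both Mapt, where 0.677% of all skipped exons were called. Of the 35, 6 (17.1%) were at an unadjusted quasi-binomial p under 0.05 and 9 (25.7%) without overlap, where 2.96% and 4.94% of all skipped exons were. The 6 and the 9 both include 2 forms each of Mapt and Ank3, which share reads, and the list was made with results of these data known. The levels in this list were more often intermediate than those of all long exons, 11 of 35 (31.4%) against 12.9%. Sets did not overlap in 20 of 155 long events at such levels (12.9%), in 12.3% below 0.10 and in 3.04% above 0.90. The share over all long events was 4.81%. Each of these lay below the 25.7% of the list, and whether level bears on that share was not tested. The median difference in the list was −0.00064, against 0.0013 over all long exons. Nin, a centrosome protein of this list, had an untranslated exon of 411 bases at 0.682, 0.526 and 0.439 in set 1 and 0.808, 0.724 and 0.6 in set 2, which overlapped (quasi-binomial test, p = 0.0343, adjusted p = 0.735). Dbn1, the gene of the actin-binding drebrin, had an exon of 677 bases at 0.999 ± 0.0011 in set 1 and 1.0 ± 0.0 in set 2.

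In DNA repair and genome stability, all 11 covered events in 9 genes were above 0.90, with no authors' call and none at an unadjusted quasi-binomial p under 0.05. At the shares of all skipped exons, 0.677% and 2.96%, hardly any would be found in so few events. Examples are exons of Blm, a helicase (716 bases, 1.0 ± 0.0 in set 1 and 0.995 ± 0.0079 in set 2), and Rev1, a polymerase of translesion synthesis (704 bases, 0.986 ± 0.0069 and 0.997 ± 0.0054). Among chromatin and transcription regulators, 33 events in 22 genes held no authors' call, where 0.677% of all skipped exons were called, and 1 event without overlap (3.03%, where 4.94% of all were), and 7 lay between 0.10 and 0.90. Brd1 (498 bases) averaged 0.972 ± 0.012 and 0.972 ± 0.014, and Nsd3 (516 bases, a histone methyltransferase) 0.996 ± 0.0071 and 0.997 ± 0.0049. The exon of 2976 bases of Ncoa6, a nuclear receptor coactivator, averaged 0.782 ± 0.056 and 0.702 ± 0.045 in the event with more reads.

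In RNA binding, splicing and RNA decay, 24 events in 19 genes fell into 18 above 0.90 and 6 below 0.10, with none between. None was an authors' call, 1 (Tra2a, p = 0.0497) was at an unadjusted quasi-binomial p under 0.05 (4.17%, where 2.96% of all skipped exons were), and none had sets that did not overlap (4.94% of all). Hnrnpm, another heterogeneous nuclear ribonucleoprotein, had an exon of 803 bases at 1.0 ± 0.0 in set 1 and 0.999 ± 0.0014 in set 2. In membrane traffic, adhesion and synapse, 14 events in 13 genes held no authors' call, none at an unadjusted quasi-binomial p under 0.05 and none without overlap. The shares of all skipped exons, 0.677%, 2.96% and 4.94%, would give hardly any in so few events. Sec31a, a coat protein of secretory vesicles, had an exon of 336 bases at 0.988 ± 0.0047 and 0.993 ± 0.0063, and Tjp1, a tight junction scaffold, one of 351 bases at 0.997 ± 0.0056 and 0.993 ± 0.011. Outside the lists, the exon of 960 bases of Mki67, a marker of cycling cells, averaged 0.893 ± 0.017 in set 1 and 0.89 ± 0.069 in set 2.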

How the data were processed

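Libraries were made from total RNA of N2a cells, per the labels' protocols. HISAT2 2.1.0, Bowtie2 2.2.3, HTSeq 0.6.0 and build mm10 are named, without roles, in the submitters' processing notes. The deposited table follows the rMATS layout and holds, per the file headers, junction counts of both forms per library, inclusion levels, p-values and their adjusted values (used as the authors' other values and scores); the caller's version is not given in the sources used here. Levels recomputed from the counts were within 0.0005 of the deposited ones. Column names do not tie sets to genotypes.

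Exons were matched to GENCODE vM21. Events averaging at least 20 reads per library were tested with a moderated quasi-binomial test (R 4.3.3, limma 3.58.1): dispersion moderated along the rarer form's count, using events with 5 or more such reads per library, floor 1, Benjamini-Hochberg over 39419 events. A call needed an adjusted p under 0.05 and a difference of 0.10 or more. The test was also run on simulated skipped exons, with changes planted only at intermediate levels. How well it finds changes near full inclusion was not checked. Limma on logit levels (0.01 to 0.99) was run beside it. The planned edgeR alternative was not run, because libraries are joined within a cell. Named exons were 1 per gene: authors' calls without overlap, the 3 smallest authors' p, the 4 longest, the 4 most covered intermediate ones, up to 2 per gene list, and Mapt; others were chosen after their values were seen. The members and lists were chosen with earlier results of these data known.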

Additional observations from a re-analysis of the deposited data

How the results depend on the processing

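The count of 0 calls by the quasi-binomial test stayed at 0 with limma on logit levels, no minimum mean count, a minimum of 50 and no minimum difference. With the dispersion prior along the total count it was 4, among them both Mapt forms and the Eef1d exon of 1130 bases. With a prior from events with 5 or more rarer reads over all libraries together, chosen after seeing the data, it was 2, Mapt (759 bases, adjusted p = 0.0266) and Eef1d (1130 bases, adjusted p = 0.00603). Usp34 and both Clvs1 forms passed the adjusted p under both of these priors, and Gnas under the first, with differences below 0.10. Leaving out 1 library at a time gave 0 to 1 calls, the 1 being Mapt without the first library of set 1. The share of all skipped exons called under these priors or without 1 library is not given here. These counts therefore say nothing about long exons in particular. The authors' deposited table gave 6 calls, 1 with a difference of 0.20 or more and 15 with no minimum. All 15 kept their sign in each leave-one-out, but of the 6 calls, 3 (Ap5m1, Zmym3 and Lzts2) fell below a difference of 0.10 without 1 library. The share of levels from 0.10 to 0.90, 12.9%, was 18.1% with no minimum mean count, 11.3% with a minimum of 50, and 12.4 to 13.1% without 1 library. The cause of these shifts was not tested. The edgeR alternative was not run. No paired analysis was possible because the columns carry no replicate numbers. Depth limits exons with few reads on 1 form, where 1 to 3 libraries decide the difference.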
